A study of Mus musculus with 6 samples.

Results

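DNA replication and licensing genes, the set that loads the replicative helicase onto origins, fires those origins and copies DNA and chromatin, were described in regulatory T (Treg) cells that lack both neddylation E2 enzymes. The list was drawn up by known function and holds 53 genes in 7 role groups, of which 51 had a named probe set on the array and were measured by 1 probe set each, out of 22206 probe sets and 19505 gene symbols in all. Orc5 and Mcm7 were not analysed here. The list was chosen with earlier results of these data known, and the study itself reported DNA replication among the up-regulated pathways. Its counts are therefore a description and not an independent test. CD4+YFP+ Treg cells were sorted from lymph nodes and spleen of mice aged 8 to 12 weeks. Labelled cDNA amplified from their total RNA was hybridised to Clariom S arrays, a 1-colour platform with a log2 signal for each probe set. The Ube2m&Ube2f-deficient Treg cells (3 arrays) had the Foxp3 Cre/wt genotype with loxP-flanked alleles of both E2 genes (Ube2m fl/fl and Ube2f fl/fl), and control Treg cells (3 arrays) had Foxp3 Cre/wt alone, each array a pool of 2 to 3 mice. All 6 samples therefore carry the Foxp3-YFP-Cre allele, in which Foxp3 drives both YFP and Cre. Per the study, the mice were heterozygous females, in which X inactivation leaves Treg cells without Cre beside the sorted ones and the animals free of inflammation. The replicates are pools, so the spread between arrays is the spread between pools.

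A replication origin is licensed in G1 phase, when the origin recognition complex together with CDC6 and CDT1 loads the MCM2-7 helicase, and it fires in S phase, when the CDC7-DBF4 kinase and cyclin-CDK activate that helicase with CDC45 and the GINS complex. Cells hold back a further round of licensing by binding CDT1 to geminin and by degrading it through the cullin-RING ligases CRL4-CDT2 and SCF-SKP2, which need NEDD8 on their cullin to be active. UBE2M and UBE2F are the E2 enzymes that pass NEDD8 to cullins. The arrays measure mRNA, and no protein level of CDT1 or of any other replication factor was measured here.

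The labels were checked first. Ube2f had log2 signals of 9.70, 9.72 and 9.82 in deficient Treg cells, against 11.91, 11.82 and 11.90 in control Treg cells, a difference of -2.13 (adjusted p = 0.000263), and Ube2m was not analysed here. Array medians lay between 4.89 and 5.11, and Pearson's r between arrays was 0.975 to 0.993 (computed over probe sets, which share their samples). The sample titles name muscle while the other labels name Treg cells. The 12 measured genes of T cell identity had a mean log2 signal of 14.56 to 14.73 in deficient and 14.74 to 14.91 in control arrays, while 18 skeletal muscle genes averaged 3.95 to 4.17 in deficient and 3.99 to 4.18 in control arrays. Of 10 measured Treg core genes 4 fell (Ctla4, Ikzf2, Nt5e and Capg) and 0 rose at an adjusted p under 0.05. Over all probe sets 2.27% were called lower and 0.581% higher. Every deficient array lay below every control array for 7 of the 10, and above for 2, Il2ra and Gpr83. Of all probe sets, 9.97% and 8.22% did so. Foxp3 itself was not analysed here. Genes of B cells (9 measured) averaged 4.10 to 4.40 in deficient and 4.42 to 4.67 in control arrays, and those of myeloid cells (13 measured) 4.42 to 5.14 in deficient and 4.47 to 4.61 in control arrays. The second deficient array stood apart from the others. A list of 10 CD8 and NK cell genes averaged 5.24, 6.59 and 5.29 in the deficient arrays, against 5.59, 4.87 and 5.05 in the control arrays. Of the 10, 0 passed the adjusted threshold and 2 were higher at an unadjusted p under 0.05, against 5.24% of all probe sets. For these 2, Klrk1 and Klrd1, all 3 deficient arrays lay above every control array. Klrk1 had 5.60, 5.92 and 5.21 in deficient arrays, against 4.98, 3.74 and 4.52 in control arrays. Klrd1 had 3.97, 5.13 and 3.97, against 3.75, 3.49 and 3.53. In that second deficient array Gzma, a granzyme of cytotoxic cells, reached 9.65 and Klrb1c, an NK cell receptor, 7.71, against highest values of 6.73 and 5.06 in the other deficient arrays and 6.68 and 6.98 in the control arrays. The CD8 chain genes did not move together, with Cd8a at 5.46, 5.56 and 4.92 in deficient arrays, against 4.96 to 5.75 in control arrays, and Cd8b1 at 9.62, 8.81 and 8.05 in deficient arrays, against 7.93 to 8.50 in control arrays.

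Replication genes lay mostly higher in deficient Treg cells. Of the 51 measured genes, 5 rose at an adjusted p under 0.05 over all probe sets, namely Mcm5, Cdt1, Prim1, Pole2 and Uhrf1, and 0 fell. These 5 are 9.80% of the list, against 0.581% of all probe sets called higher and 2.27% called lower. At an unadjusted p under 0.05, 19 of 51 were higher and 0 lower, against 5.24% and 7.62% of all probe sets. Every deficient array lay above every control array for 18 genes, where 8.22% of all probe sets did so. The reverse held for 1 gene, Pcna, where 9.97% of all probe sets did so. In all, 41 of the 51 differences were above 0, against 53% over all probe sets.

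The median log2 difference of the list was 0.40, against 0.0233 over all probe sets, and single differences ran from -0.51 for Tyms to 1.60 for Mcm5. In bulk samples a larger share of cells in S phase and more of these mRNAs per cell cannot be told apart. A level set by 1091 olfactory receptor probe sets, the 95th percentile of their means (log2 5.39, the silent-gene level), served as a guide to genes with little signal. For 7 replication genes both group means lay under it (Orc1, Gmnn, Gins1, Gins2, Rfc3, Chaf1a and Tk1), and for Cdc6 and Pole the control mean did. Among the 42 others the median was 0.41, with all 5 calls and 15 genes without overlap above the controls, while over the 10123 probe sets with a mean at or above that level the median was -0.0267, 1.17% were called higher and 10.0% had every deficient array above every control array. Leaving out any single array left 1 or 2 of the 5 calls, as given gene by gene for each. In those fits 0.207% to 0.365% of all probe sets were called higher.

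**Figure D1:**
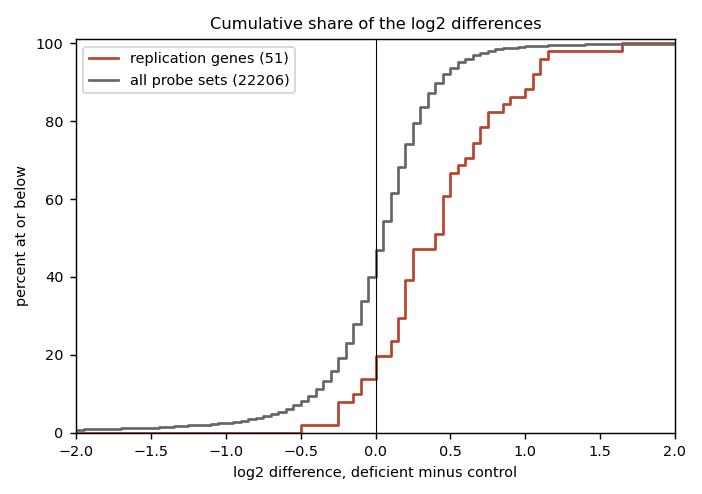
Cumulative share (percent, y axis) of log2 differences, deficient minus control Treg cells (x axis), in steps of 0.05, for the 51 replication genes (red) and all 22206 probe sets (grey). The red curve lies to the right of the grey curve, with 41 of 51 differences above 0 against 53% of all probe sets.

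Because replication genes are the textbook targets of E2F transcription factors, 4 forms of the letters that these factors bind were searched on both strands in the RefSeq promoter windows (250 bases before to 50 after each start site, GRCm38.p6). Windows matched by symbol for 45 of the 53 listed genes (not Gmnn, Mcm4, Gins1, Gins2, Gins4, Prim2, Pole or Rfc2). TTCCCGC was found in 44.4% of them, against 5.29% of all 27025 genes with a window, TTGGCGC in 24.4%, against 2.85%, and TTCGCGC in 20% (9 of 45), against 1.81%, while TTGCCGC was in 4.44%, against 2.05%. At least 1 form was found in 30 of 45 (66.7%), against 10.9% of all genes and 13.7% of the 17491 protein-coding ones. TTTGAA, the letters of the CHR element of genes that peak in mitosis, was found in 8 of 45 (17.8%), against 20.2% of all genes. The stretches of the 5 genes that rose are shown, since each holds E2F letters. They are written 5′ to 3′ on the strand of the gene, with the E2F letters in capitals whether they read forward or as their reverse complement, and positions are counted from 1 at the start site, with negative numbers before it. In Mcm5 the letters lie at -164 to -158, -152 to -146 and -149 to -143, the last pair overlapping (chr8:75109259-75109508, plus strand). They lie at -15 to -9 in Prim1 (chr10:128015095-128015214, plus strand) and at -48 to -42 in the first of the 2 windows of Uhrf1 (chr17:56303217-56303336, plus strand). For Cdt1 (chr8:122568029-122568058, plus strand) and Pole2 (chr12:69228161-69228190, minus strand) they follow the start site, at 19 to 25 and 34 to 40 in Cdt1 and at 11 to 17 in Pole2, and only 30 bases around them are given.
Mcm5: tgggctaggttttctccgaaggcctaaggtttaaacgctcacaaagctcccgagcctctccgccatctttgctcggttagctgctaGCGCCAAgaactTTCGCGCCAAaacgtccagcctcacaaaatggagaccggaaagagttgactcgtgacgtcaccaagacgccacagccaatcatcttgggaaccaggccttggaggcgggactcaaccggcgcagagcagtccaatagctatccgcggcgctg
Prim1: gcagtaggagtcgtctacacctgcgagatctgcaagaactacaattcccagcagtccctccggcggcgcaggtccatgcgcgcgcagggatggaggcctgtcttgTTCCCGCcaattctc
Uhrf1: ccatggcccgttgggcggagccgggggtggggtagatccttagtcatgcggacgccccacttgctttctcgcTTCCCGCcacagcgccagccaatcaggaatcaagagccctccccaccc
Cdt1: atccGCGGGAActacctttTTGGCGCcatg
Pole2: gtcggcggtgGCGCCAAatcgcgaacatgg

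The median differences of genes with and without E2F letters were close. The 29 measured genes with the letters had a median difference of 0.40, with 24 above 0 and 5 called higher, and the 14 measured genes with a window and no such letters had a median of 0.44, with 10 above 0 and 0 called. A match is a run of letters and says nothing about whether a factor was bound there.

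Origin licensing factors were higher in deficient Treg cells for Cdt1, with smaller differences for the other 7. Cdt1, which brings the helicase to the origin recognition complex, had log2 signals of 8.98, 9.09 and 9.22 in deficient Treg cells, against 8.12, 7.81 and 8.12 in control Treg cells. The groups did not overlap, and the difference was 1.08 ± 0.18 (SE, n = 3 each; 95% interval 0.67 to 1.49), a 2.11-fold higher signal with an adjusted p of 0.0159. Its difference stayed between 0.98 and 1.14 with any single array left out, and its adjusted p passed 0.05 without control array 2 (0.0737), control array 3 (0.0518), deficient array 1 (0.0527) or deficient array 3 (0.061). Cdc6, the ATPase that loads MCM2-7 together with CDT1, had 5.34, 5.99 and 5.49 in deficient arrays, against 5.14, 4.27 and 4.75 in control arrays. These groups did not overlap either, but the control mean lay under the silent-gene level and the difference of 0.89 had an adjusted p of 0.163.

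Gmnn encodes geminin, the inhibitor that holds CDT1 inactive after G1. It had 4.47, 5.61 and 4.99 in deficient arrays, against 4.90, 4.81 and 4.88 in control arrays, so that only the second and the third deficient array exceeded the controls and the difference was 0.16 (adjusted p = 0.897). Without the second deficient array the difference was -0.13. Orc1, the subunit of the origin recognition complex whose level follows the cell cycle in human cells, had 5.23, 5.20 and 4.67 in deficient arrays, against 4.83, 4.65 and 4.42 in control arrays. The third deficient array fell within the control range, and both means lay under the silent-gene level (difference 0.40, adjusted p = 0.526). Orc3, another subunit of the complex, was at 13.65, 13.48 and 13.37 in deficient arrays, against 13.45, 13.32 and 13.49 in control arrays, a difference of 0.08 with a 95% interval of -0.31 to 0.47. Orc2 did not overlap between the groups (difference 0.44, adjusted p = 0.401), while Orc4 and Orc6, with differences of 0.14 and 0.17, did. All 8 measured licensing genes had a difference above 0, with a median of 0.285, and 1 of 8 passed the adjusted threshold. Of all probe sets, 53% had a difference above 0 and 0.581% were called higher.

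The differences of the helicase subunits covered a wide range. Mcm5 had the largest difference of the whole list, at 8.69, 8.61 and 9.07 in deficient Treg cells, against 7.23, 7.13 and 7.20 in control Treg cells. The lowest deficient array stood more than 1 log2 unit above the highest control array, and the difference of 1.60 ± 0.19 (SE; 95% interval 1.18 to 2.03) was a 3.04-fold higher signal with an adjusted p of 0.00247. Leaving out any single array kept this call, with adjusted p between 0.0051 and 0.0179.

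Mcm2 had 9.32, 9.16 and 9.64 in deficient arrays, against 8.38, 8.76 and 8.51 in control arrays. Every deficient array was higher, with a difference of 0.82 that missed the adjusted threshold (adjusted p = 0.0805). Mcm3 had 8.55, 7.99 and 8.51 in deficient arrays, against 7.79, 7.40 and 7.98 in control arrays, where the lowest deficient and the highest control array were 0.01 apart. Its difference was 0.63 (adjusted p = 0.274). For Mcm4 the deficient arrays split, with 11.08 and 11.10 above and 10.33 within the control values of 10.61, 10.21 and 10.22. Mcm6 overlapped, at 12.06, 12.25 and 12.24 in deficient arrays, against 12.24, 12.31 and 12.03 in control arrays, a difference of -0.01 with a 95% interval of -0.41 to 0.39. Although the 6 MCM2-7 proteins form a ring with 1 copy of each, the measured mRNA differences of 5 of them thus ranged from -0.01 to 1.60, around a median of 0.63. The difference between subunits was not tested.

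**Figure D2:**
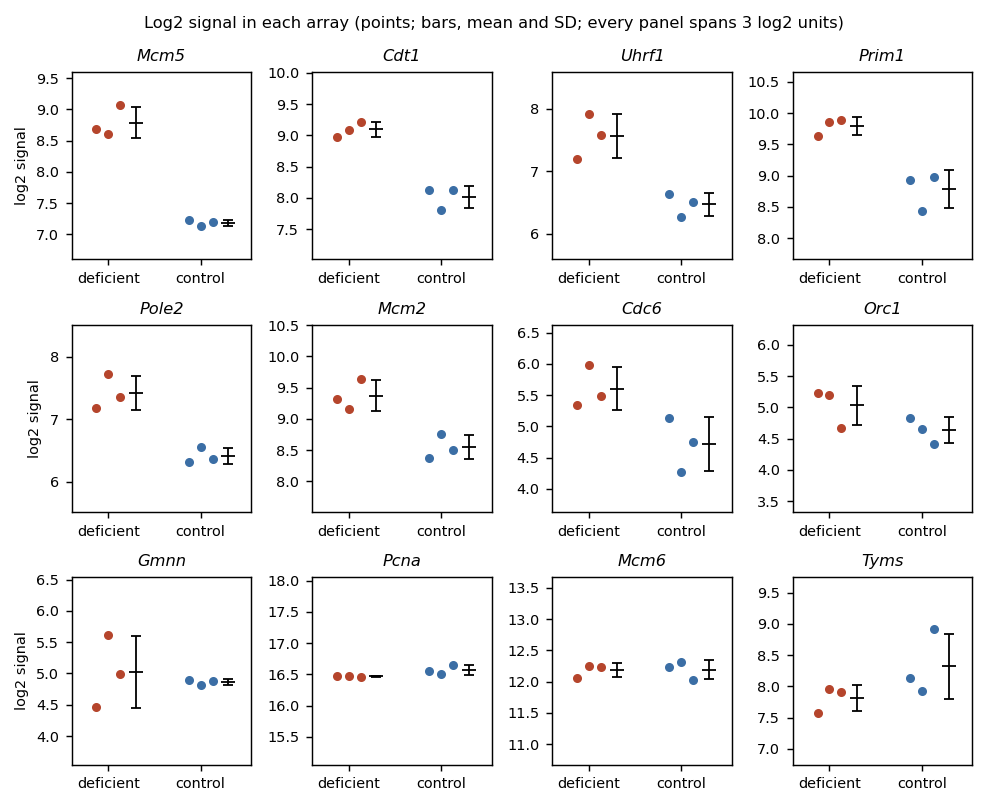
Log2 signal (y axis) of 12 replication genes in each array, with deficient Treg cells (red, left) and control Treg cells (blue, right) as points and the mean and SD as bars (n = 3 each); each panel spans 3 log2 units. The groups are apart for Mcm5, Cdt1, Uhrf1, Prim1, Pole2, Mcm2 and Cdc6, overlap for Orc1, Gmnn, Mcm6 and Tyms, and for Pcna differ by 0.10 with the deficient arrays lower.

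Origin firing factors, which turn the loaded helicase into a moving fork, had 0 of 9 genes past the adjusted threshold and 8 of 9 differences above 0, with a median of 0.38. Of all probe sets, 0.581% were called higher and 53% had a difference above 0. Cdc45, the helicase cofactor, had 6.68, 6.82 and 7.07 in deficient arrays, against 6.34, 5.94 and 6.04 in control arrays. It was the largest difference of the group, without overlap (0.75, 95% interval 0.30 to 1.20, adjusted p = 0.103). Mcm10, which binds the helicase as it is activated, had 7.13, 6.95 and 7.19 in deficient arrays, against 6.64, 6.39 and 6.52 in control arrays. Again every deficient array was the higher (difference 0.57, adjusted p = 0.167). Ticrr, which encodes treslin and carries the CDK signal to origins, overlapped at 5.57, 6.31 and 6.44 in deficient arrays, against 5.31, 5.46 and 5.70 in control arrays.

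The initiating kinase and the GINS complex moved less. Cdc7 had 10.07, 10.63 and 10.40 in deficient arrays, against 10.10, 10.59 and 10.02 in control arrays, and the difference of 0.13 went to -0.0017 without the second deficient array. Dbf4, its activating subunit, had a difference of 0.44 with overlap. Among the 4 GINS subunits the differences were 0.38, 0.23 and 0.20 for Gins1, Gins2 and Gins4 and -0.28 for Gins3, and the groups overlapped for all 4.

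Polymerase and primase genes (10 measured) held 2 of the 5 calls, where 0.581% of all probe sets were called higher. Prim1, the catalytic subunit of primase that makes the RNA start of each new strand, had 9.63, 9.86 and 9.89 in deficient Treg cells, against 8.93, 8.43 and 8.98 in control Treg cells. The difference of 1.01 ± 0.21 (SE; 95% interval 0.54 to 1.48) was a 2.02-fold higher signal with an adjusted p of 0.0388, and it missed the threshold with any single array left out (adjusted p 0.0796 to 0.128). Pole2, the second subunit of the leading strand polymerase epsilon, had 7.18, 7.72 and 7.35 in deficient Treg cells, against 6.31, 6.55 and 6.37 in control Treg cells. Its difference was 1.01 ± 0.20 (SE; 95% interval 0.55 to 1.46), with an adjusted p of 0.0335 that became 0.0614 to 0.126 with any single array left out. In the RefSeq annotation the span of Pole2 overlaps that of Klhdc1, and whether the probes tell the 2 genes apart was not examined here.

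Pole, the catalytic subunit of the same polymerase, had the largest difference of the group, 1.13, at 5.32, 6.38 and 5.06 in deficient arrays, against 4.99, 3.95 and 4.43 in control arrays. The groups did not overlap, but their spread was wide and the control mean was under the silent-gene level (adjusted p = 0.214). Pole3, a histone-fold subunit, overlapped (difference 0.42). Pola2, the second subunit of polymerase alpha, was narrower, at 9.75, 9.89 and 9.98 in deficient arrays, against 9.39, 9.44 and 9.38 in control arrays, with no overlap (difference 0.47, adjusted p = 0.254). In contrast, Pola1, the catalytic subunit, had a difference of -0.28 and Prim2, the large primase subunit, of 0.17, both with overlap, so the 4 genes of the polymerase alpha-primase complex ranged from -0.28 to 1.01. Pold2, a subunit of the lagging strand polymerase delta, did not overlap (0.49, adjusted p = 0.427), while Pold1 and Pold3 did. Pold3 was at 10.21, 10.99 and 10.37 in deficient arrays, against 10.48, 10.31 and 10.16 in control arrays. Over the 10 genes the median was 0.44, with 9 above 0, against 53% of all probe sets. For 5 of them every deficient array lay above every control array, against 8.22% of all probe sets.

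The sliding clamp, its loader, the single strand binding protein RPA and the flap enzymes showed the smallest shift, with a median of 0.06 over 11 genes, 6 above and 5 below 0, and 0 past the adjusted threshold. Of all probe sets, 53% had a difference above 0 and 0.581% were called higher. Pcna, the clamp that holds polymerases on DNA, was at 16.47, 16.48 and 16.46 in deficient Treg cells, against 16.56, 16.50 and 16.65 in control Treg cells. All 3 deficient arrays were lower, by a mean of 0.10 (95% interval -0.47 to 0.27, adjusted p = 0.893). Lig1, the ligase that joins Okazaki fragments, was the only gene of this group with every deficient array above the controls, at 6.51, 6.59 and 6.36, against values from 5.31 to 6.02 in control arrays (difference 0.71, adjusted p = 0.198).

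Of the clamp loader, Rfc1, the large subunit, had 11.75, 11.00 and 11.48 in deficient arrays, against 11.06, 10.62 and 10.55 in control arrays, with a slight overlap (0.67, adjusted p = 0.268). The 4 small subunits Rfc2 to Rfc5 had differences of -0.15, 0.06, -0.02 and 0.12. For RPA they were -0.16, 0.17 and -0.30 for Rpa1, Rpa2 and Rpa3, and for the flap nuclease Fen1 0.17. Each of these 8 genes overlapped between the groups.

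Genes that copy chromatin behind the fork had 1 call among 4 members and all 4 differences above 0, with a median of 0.68. Of all probe sets, 0.581% were called higher and 53% had a difference above 0. Uhrf1, which reads half-methylated CpG sites and brings the maintenance methyltransferase to them, had 7.20, 7.91 and 7.58 in deficient Treg cells, against 6.63, 6.26 and 6.51 in control Treg cells. The difference of 1.10 ± 0.22 (SE; 95% interval 0.59 to 1.61) was a 2.14-fold higher signal with an adjusted p of 0.0389. It kept the call without deficient array 1 (adjusted p = 0.0439) and lost it without any other single array (0.0846 to 0.159).

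Dnmt1, that methyltransferase, had 10.05, 10.17 and 10.42 in deficient arrays, against 9.82, 9.82 and 9.79 in control arrays, without overlap (0.40, adjusted p = 0.386). Chaf1b and Chaf1a encode 2 subunits of CAF-1, which deposits histones on new DNA. Chaf1b had 8.23, 7.50 and 6.75 in deficient arrays, against 6.46, 6.29 and 6.87 in control arrays, so that the third deficient array lay inside the control range despite a difference of 0.95 (adjusted p = 0.27). Chaf1a was tight, at 5.14, 5.09 and 5.17 in deficient arrays, against 4.78, 4.70 and 4.70 in control arrays, a difference of 0.41 at a level where both means were under the silent-gene level (adjusted p = 0.323).

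The supply of deoxynucleotides had 0 of 4 calls and both signs, where 0.581% of all probe sets were called higher and 2.27% lower. Rrm1, the large subunit of ribonucleotide reductase, had 10.33, 10.97 and 10.33 in deficient arrays, against 10.18, 9.79 and 10.02 in control arrays. Its groups did not overlap (0.55, adjusted p = 0.355). Rrm2, the small subunit made in S phase, scattered most, at 6.53, 7.47 and 7.67 in deficient arrays, against 7.21, 5.65 and 6.72 in control arrays (0.70, 95% interval -0.26 to 1.66). Tyms, thymidylate synthase, had the lowest difference of the list, -0.51, at 7.58, 7.96 and 7.91 in deficient arrays, against 8.14, 7.92 and 8.91 in control arrays (95% interval -1.12 to 0.11, adjusted p = 0.515). Tk1, thymidine kinase, had a difference of -0.01 with both means under the silent-gene level.

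**Figure D3:**
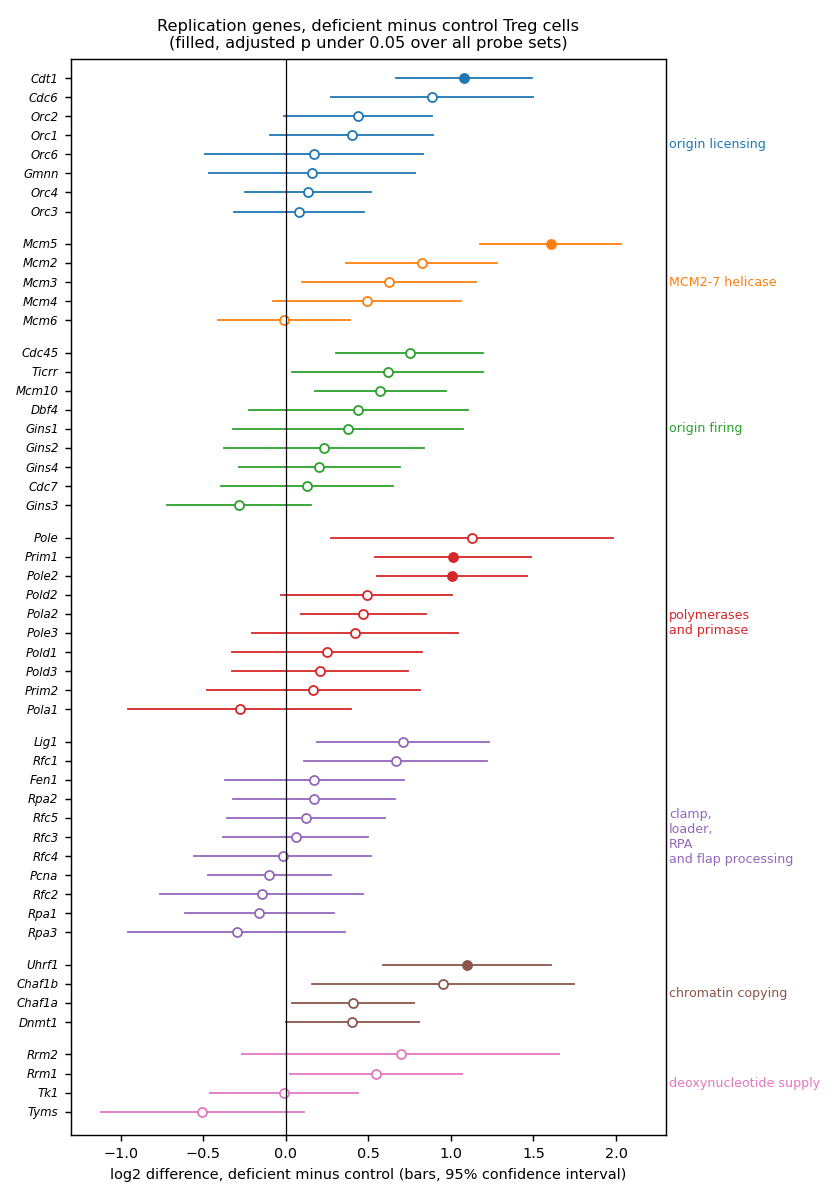
Log2 difference, deficient minus control Treg cells (x axis), with its 95% confidence interval, for each of the 51 replication genes, grouped by role and ordered by size within each group (n = 3 arrays each). Filled points are the 5 genes past an adjusted p of 0.05; 10 genes lie below 0, 5 of them in the clamp, loader, RPA and flap group.

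The list median lay above that of every control array in each deficient array. The median over the 51 genes of the signal minus the control mean was 0.26, 0.45 and 0.21 in the deficient arrays, against 0.07, -0.06 and -0.01 in the control arrays. Above the highest control array lay 29, 35 and 25 of the 51 genes (56.9%, 68.6% and 49%) in deficient arrays 1, 2 and 3, against 28.2%, 27.9% and 31.1% of all probe sets. The largest shift was in the second deficient array, the same array in which the CD8 and NK cell genes were high. Their part in the result was not tested. Without that array the list median was 0.36, with 36 of 51 above 0 and 2 calls, Mcm5 and Cdt1. Without that array and control array 1 together the median was 0.42, with 38 of 51 above 0 and 1 call, Mcm5. In these 2 fits 0.365% and 0.225% of all probe sets were called higher.

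Mitosis genes and replication-dependent histone genes were highest in the second deficient array. Of 28 measured mitosis genes 1 rose, Bub1, a kinase of the spindle checkpoint (1.25, adjusted p = 0.0352, not called with any single array left out, 0.0609 to 0.127), whose control mean of 4.18 lay under the silent-gene level. The median difference of the mitosis genes was 0.47, with 24 of 28 above 0, against 53% of all probe sets, of which 0.581% were called higher. At an unadjusted p under 0.05, 6 were higher and 0 lower, against 5.24% and 7.62% of all probe sets. Every deficient array lay above every control array for 7 of the 28, against 8.22% of all probe sets. The shift of the mitosis genes was -0.02, 1.16 and 0.33 in the deficient arrays, against 0.24, -0.15 and -0.03 in the control arrays. The first deficient array thus lay below the first control array. Mki67, the proliferation marker, had 9.51, 11.34 and 10.38 in deficient arrays, against 9.97, 8.74 and 9.49 in control arrays. Without the second deficient array the median of the mitosis genes was 0.18. Aurka, a spindle pole kinase, also had a control mean under that level (4.83) and a difference of 0.93 (adjusted p = 0.119), which passed the threshold without deficient array 1 (0.0407).

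Histone genes of the replication-dependent clusters, which are near-identical copies that probes may not separate, had 0 of 31 calls and a median of 0.41. Their shift was -0.17, 1.13 and 0.16 in the deficient arrays, against 0.27, -0.31 and 0.06 in the control arrays, and without the second deficient array the median was 0.025. The histone genes with the lowest p values were H3c15 (1.40, adjusted p = 0.194) and H1f2, a linker histone (-0.95, adjusted p = 0.345, and 0.0279 without control array 1). Of all probe sets, 0.581% were called higher and 2.27% lower. Above every control array lay 32.1%, 89.3% and 57.1% of the mitosis genes and 9.68%, 80.6% and 38.7% of the histone genes in deficient arrays 1, 2 and 3. In the first deficient array the share of the replication genes, 56.9%, was the highest of these lists, with 28.2% of all probe sets there, while in the second it was the lowest, 68.6%, and in the third, at 49%, it was below that of the mitosis genes. No test of the difference between these lists was made.

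**Figure D4:**
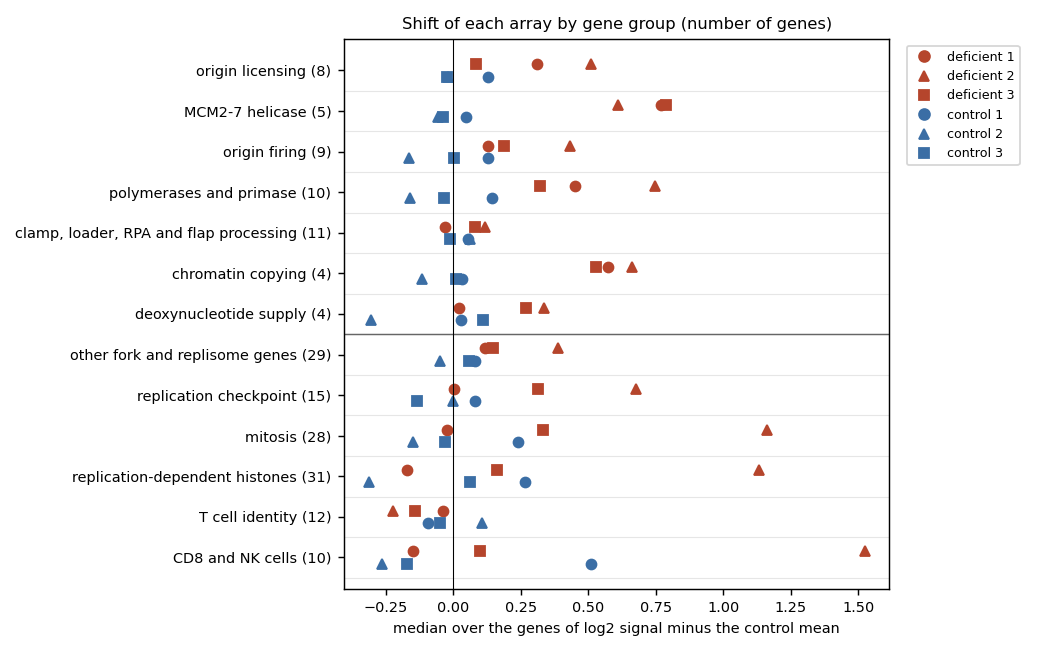
Median over the genes of each list of the log2 signal minus the control mean (x axis) in each deficient (red) and control (blue) array, with the shape giving the replicate number and the number of measured genes in parentheses. The helicase, polymerase and chromatin copying genes have all 3 deficient arrays to the right of the control arrays. In the licensing, firing, clamp and deoxynucleotide groups the lowest deficient array does not lie to the right of every control array. Deficient array 2 has the largest shift in every role group except the helicase genes, and in the mitosis, histone and CD8 and NK cell genes.

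The remaining genes of the replication pathway were counted in lists drawn up by function. Of 29 other fork and replisome genes 1 rose and 0 fell, with a median of 0.26. Of all probe sets, 0.581% were called higher and 2.27% lower. Every deficient array lay above every control array for 6 of the 29 and below for 4, against 8.22% and 9.97% of all probe sets. Timeless, which keeps helicase and polymerase together, had 7.79, 7.57 and 7.74 in deficient Treg cells, against 6.58, 6.92 and 6.86 in control Treg cells (0.91, adjusted p = 0.0339, and 0.0549 to 0.132 with any single array left out). Mtbp, a partner of treslin at origins, ran the other way without overlap, at 7.96, 8.55 and 8.38 in deficient arrays, against 9.16, 8.73 and 9.17 in control arrays (-0.72, adjusted p = 0.17).

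Cullin-RING ligase genes had 0 of 12 calls and a median of 0.06, in a list of CRL4-CDT2 and SCF-SKP2 parts that also held Cul2 and Lrr1, which form the ligase of the replicative helicase, and Ambra1, a substrate receptor for D-type cyclins. The lowest p values belonged to Cul1, the SCF cullin, at 10.04, 10.05 and 10.17 in deficient arrays, against 10.60, 10.76 and 10.76 in control arrays (-0.62, adjusted p = 0.114), and to its adaptor Skp1 (-0.50, adjusted p = 0.274), both without overlap. Of 15 replication checkpoint genes 1 rose, Fanci, a partner of FANCD2 in crosslink repair, at 5.77, 6.55 and 5.94 in deficient Treg cells, against 4.77, 4.82 and 4.48 in control Treg cells. Its difference was 1.40 (adjusted p = 0.0169), with a control mean under the silent-gene level, and it missed the threshold with any 1 control array left out (0.0527, 0.0612 and 0.0788). The Bloom helicase gene Blm had a difference of 0.84 (adjusted p = 0.148), without overlap. For both lists the share over all probe sets was 0.581% called higher and 2.27% lower.

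Among regulators of S phase entry, 2 of 18 E2F and pocket protein genes fell and 0 rose, with a median difference of 0.04. Over all probe sets 2.27% were called lower and 0.581% higher. Of the 18 genes, 11 differences were above 0 and 7 below. At an unadjusted p under 0.05, 6 were higher and 2 lower, against 5.24% and 7.62% of all probe sets. The 6 were E2f1, E2f3, E2f8, Lin54, Mybl2 and the pocket protein gene Rb1 (0.68, adjusted p = 0.146). E2f8 had the largest difference above 0 of the list (1.31, adjusted p = 0.214), without overlap and with a control mean under the silent-gene level. For E2f1 and Mybl2 both means lay under that level. Rbl2, which encodes p130, the pocket protein that represses E2F targets in resting cells, had 11.69, 12.19 and 11.78 in deficient Treg cells, against 13.48, 13.80 and 13.13 in control Treg cells. Every deficient array lay almost 1 log2 unit or more below every control array (-1.58, 95% interval -2.11 to -1.06, a 3.00-fold lower signal, adjusted p = 0.00812), and the call held with any single array left out (0.00965 to 0.0481). E2f5, a partner of p130 in repression, had 6.27, 6.26 and 5.82 in deficient Treg cells, against 7.01, 6.94 and 7.14 in control Treg cells (-0.91, adjusted p = 0.0446), and was not called with any single array left out (0.0676 to 0.166).

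Of 8 S-phase cyclin and CDK genes 1 rose, Cdk2, the kinase that drives entry into S phase, at 11.58, 11.13 and 11.50 in deficient Treg cells, against 10.36, 10.31 and 10.53 in control Treg cells. Its difference had a 95% interval of 0.57 to 1.44 (adjusted p = 0.0285), kept without deficient array 2 (0.0236) and lost without any other single array (0.0767 to 0.117). Ccne1, cyclin E1, its activator, had 7.46, 7.93 and 7.44 in deficient arrays, against 7.01, 6.68 and 6.76 in control arrays (0.79, adjusted p = 0.0998). Nucleotide metabolism genes beyond the replication list had 0 of 19 calls and a median of -0.07. For this list and the cyclin and CDK genes the share over all probe sets was 0.581% called higher and 2.27% lower. The lowest p values of the nucleotide metabolism genes were those of Dguok, a mitochondrial deoxynucleoside kinase (-0.82, adjusted p = 0.0622), and Shmt2, the mitochondrial serine hydroxymethyltransferase (0.63, adjusted p = 0.163). The study's thresholds, a p under 0.05 and a fold over 1.5, were applied to the unadjusted p of the methods' t-test. There 9 of the 51 replication genes were higher and 0 lower, against 2.11% (468) and 4.63% (1028) of all probe sets. The study did not name the test behind its array p-values, and it reported more genes in each direction than passed here.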

How the data were processed

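CD4+YFP+ Treg cells from 6 pools of 2 to 3 mice (3 deficient, 3 control, grouped by the genotype label) were measured on Clariom S arrays after pico amplification. The authors deposited 1 log2 signal per probe set and array, made with Affymetrix Expression Console 1.4 per the submitters' processing notes. How probes were summarised, the base of the logarithm and any filtering were not stated in what was read here. The values were taken as log2 from their range (2.06 to 19.9). Another base would change folds but not signs. Amplification from picogram amounts can make dim genes noisier. Neither detection calls nor scan dates were used.

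Of 22206 probe sets 19572 carried 1 gene symbol and 2634 were unnamed here. Where a symbol had several, the brightest stood for the gene. Histone genes were matched through older symbols. Differences were fitted with lmFit and eBayes of limma 3.58.1 in R 4.3.3, with group as the only term, on every probe set, and p-values were adjusted by Benjamini and Hochberg's method, with calls at 0.05. The prior had 4.78 degrees of freedom and an SD of 0.267. An exact permutation test of 3 against 3 arrays cannot go below p = 0.1 and was not used for calls.

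The members, lists, tests and alternatives were chosen with earlier results of these data known. Genes were named as follows. All replication genes could be named, with array values for those called, for the largest difference and the brightest gene of each role group, and for Cdt1, Gmnn, Cdc6, Orc1, Mcm2 and Pcna. Each related list gave up to 4 called genes or, with fewer than 2 calls, the 2 with the lowest p. Array values of other members were added after their values were seen. So were Gzma, Klrb1c, Klrd1, Klrk1, Cd8a, Cd8b1, Mki67, Rb1, E2f1, E2f3, E2f8, Lin54, Mybl2 and the named Treg core genes. The alternatives were quantile normalization, centring on array medians, a filter on the 40% of probe sets with the dimmest mean, eBayes with trend and robust options, the methods' t-test, array weights, a replicate block, each array left out in turn, control 1 and deficient 2 left out together, and the average over a symbol's probe sets. On simulated data for this comparison over 22206 probe sets, 167 of 200 changes of 2 log2 units (83.5%) were recovered with 5 false calls. Of 200 changes of 1 unit 0 were recovered. Only 200 probe sets were changed there, while 129 were called higher and 503 lower in the real arrays. The simulation therefore cannot give the share missed in the real arrays, where Prim1 (1.01) and Pole2 (1.01) were called.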

Additional observations from a re-analysis of the deposited data

How the results depend on the processing

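The number of replication genes called higher, 5, was the same genes under quantile normalization, with the dimmest probe sets left out, with an intensity trend and robust variance and with array weights. In those fits 0.644% to 1.07% of all probe sets were called higher. Averaging the probe sets of each symbol could not change the number, since no replication gene had more than 1 probe set. The number was 3 with median centring (Prim1 and Uhrf1 lost), where 0.464% of all probe sets were called higher. After adjustment the methods' t-test gave 0, with an adjusted p of 0.0905 for Mcm5. That test called only 1 of all 22206 probe sets higher. At the unadjusted p and fold of the study the t-test gave 9, against 2.11% of all probe sets. Without control 1 and deficient 2 together the number was 1, against 0.225%. With the replicate number as a block the number was 2, Mcm5 and Cdt1, against 0.315% of all probe sets. Same-numbered arrays deviated with r of -0.0561, -0.243 and 0.291, so the numbers were not taken to pair samples. Leaving out single arrays gave 1 to 2 calls, against 0.207% to 0.365% of all probe sets, and a list median of 0.29 to 0.41. The count of genes called lower was 0 in each alternative. The cause of the lost calls was not tested, apart from the fewer arrays that leaving out one gives.

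Small differences changed sign. Under quantile normalization Mcm6 was 0.0619 and Rfc4 0.0908, and with array weights Tk1 was 0.00456. Without control 1 and deficient 2 together Gmnn was -0.12, Cdc7 -0.07, Prim2 -0.09, Rfc3 -0.13, Rfc4 0.18, Rpa2 -0.11 and Tk1 0.06. Leaving out single arrays gave a range of -0.13 to 0.36 for Orc6, -0.13 to 0.44 for Gmnn, -0.0917 to 0.0517 for Mcm6, -0.0017 to 0.31 for Cdc7, -0.0333 to 0.44 for Gins2, -0.16 to 0.41 for Prim2, -0.0267 to 0.36 for Pold3, -0.35 to 0.17 for Rfc2, -0.0583 to 0.17 for Rfc3, -0.21 to 0.16 for Rfc4, -0.045 to 0.27 for Rfc5, -0.01 to 0.31 for Rpa2 and -0.12 to 0.12 for Tk1. With 3 arrays a group, changes near 1 log2 unit can be missed, and 9 replication genes had at least 1 mean under the silent-gene level. Signal over background was not examined.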
